A study of Arabidopsis thaliana with 28 samples.

Results

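The genes of autotetraploid Arabidopsis seedlings were sorted by 2 histone marks, and the sorting was related to the transcript level of each gene. A gene was counted as carrying a mark where a peak covered at least 1 bp of its body in both replicate peak lists of that mark. Of the 33278 nuclear genes of the deposited expression table, 1408 (4.23%) carried both H3K4me3 and H3K27me3, 14510 (43.6%) carried H3K4me3 only, 5722 (17.2%) carried H3K27me3 only, and 11638 (35%) carried neither. The transcript level was not used to sort the genes. The table lists 33557 genes in all, and 279 organelle genes, each listed at 0, were left out. Among the 26697 protein-coding genes, 58% carried H3K4me3 and 24.1% H3K27me3, and the 4 classes held 5.08% (both), 52.9% (H3K4me3 only), 19% (H3K27me3 only) and 23% (neither).

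The plants were 4XCol-0 (4XCol below), an autotetraploid line made from Columbia by colchicine treatment, and its diploid progenitor Col-0 (Col), which served as the reference. Both carry the wild-type Columbia genome with no transgene, and both were grown for 10 days on medium with sucrose after cold treatment of the seeds. The samples are labelled as seedling. Per the study's methods their aerial parts were harvested for all libraries, which should leave out roots, although its ChIP method names only seedlings. Transcripts of root marker genes such as CASP1, EXPA7 and PRP3 were nonetheless listed in 4XCol, and whether the samples were free of roots was not tested. For each genotype there were 2 ChIP-seq libraries of H3K4me3, 2 of H3K27me3, 1 of anti-H3, and 3 RNA-seq samples, whose expression was deposited as 1 value per gene and genotype. The study calls the replicates biological, but no source used here says whether they came from separate plantings, so p-values measure only the spread between these samples. The 4XCol line is a single line, so nothing here separates ploidy from the line itself.

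H3K4me3 is the trimethylation of lysine 4 of histone H3, deposited by the COMPASS-type methyltransferases (ATX and SDG proteins in plants) just inside the start of transcribed genes. H3K27me3 is deposited on lysine 27 by the Polycomb repressive complex 2, spreads across whole gene bodies in Arabidopsis, and is known for holding developmental genes silent in tissues that do not use them. Genes carrying both marks are often called bivalent. Marks on the same histone tail or nucleosome can give such peaks. So can marks on different copies of the gene in 1 nucleus (at least 4 in a tetraploid), or in different cells. In bulk tissue these give the same peaks and cannot be told apart here.

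Promoters of 2 genes are printed to show the motif that, of 4 searched, had the largest ratio between its share in the class with both marks and its share in all promoters. They belong to KNAT6 (both marks), a KNOX homeobox gene of the shoot meristem and organ boundaries, and PP2AA3 (H3K4me3 only), a regulatory subunit of protein phosphatase 2A used as a constant reference in expression assays. Each sequence is RefSeq TAIR10.1, lies on the minus strand, reads 5′ to 3′ towards the gene, and leaves out bases that RefSeq annotates as gene. The capitals mark the GA repeat (GAGAGAGA, on either strand). The windows are chr1:8302652-8302801 for KNAT6 and chr1:4567850-4567934 for PP2AA3.
KNAT6: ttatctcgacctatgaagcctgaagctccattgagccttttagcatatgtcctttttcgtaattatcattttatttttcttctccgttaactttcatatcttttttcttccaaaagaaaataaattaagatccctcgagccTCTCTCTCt
PP2AA3: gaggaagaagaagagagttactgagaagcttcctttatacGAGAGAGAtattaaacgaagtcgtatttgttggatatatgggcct

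Over the window from 250 bases before to 50 bases after the start, the GA repeat was found in 21.1% of the 1408 promoters of genes with both marks, in 17.3% of those with H3K4me3 only, in 10.8% of those with H3K27me3 only and in 13.1% of all 33277 promoters read. The telobox (AAACCCTA), a motif known from Polycomb targets in Arabidopsis, was in 7.24% of promoters with both marks, 9.37% with H3K4me3 only, 9.51% with H3K27me3 only and 8.15% of all. The G-box (CACGTG), bound by bHLH and bZIP factors, was in 8.52% of promoters with both marks, 10.2% with H3K4me3 only, 5.14% with H3K27me3 only and 7.19% of all. The TATA box (TATAAA) was in 57.8% of promoters with both marks and 57.4% with H3K27me3 only, but in 46.4% with H3K4me3 only, against 48.3% of all. The genes with both marks thus sat nearer to the H3K4me3 genes in the GA repeat, and nearer to the H3K27me3 genes in the TATA box. No motif contains the letters of another, every motif was searched on both strands, and a match is only a run of letters.

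The peak lists of the 2 marks differed in shape. The H3K4me3 lists were deposited as narrow peaks and the H3K27me3 lists as broad peaks, so in widths and covered shares the mark and the way of calling cannot be told apart. The H3K4me3 lists held 16846 and 17116 peaks with median widths of 575 and 620 bp, and the H3K27me3 lists held 6274 and 6366 peaks with median widths of 1665.5 and 1612.5 bp. A gene with an H3K4me3 peak had 25.4% and 27.2% of its body under the mark at the median, whereas a gene with an H3K27me3 peak had 97.4% and 95.6%. Of the bases under peaks, 95.8% and 95.2% lay within genes for H3K4me3, against 63.1% and 64.2% for H3K27me3. The 2 marks covered similar amounts of gene-body sequence, 14.0% and 15.4% for H3K4me3 and 13.2% and 13.1% for H3K27me3. In the body share, the width, the share within genes and the covered gene-body sequence, the 2 H3K4me3 lists lay on one side of the 2 H3K27me3 lists, and the exact permutation test (two-sided, 2 against 2 libraries) gave p = 0.33, the smallest it allows.

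Replicates overlapped well. The 2 H3K4me3 lists shared 0.829 of their joint bases (Jaccard index) and the 2 H3K27me3 lists 0.840, with 2 and 0 peaks of identical bounds, so no list was a copy of the other. An H3K4me3 peak was on 16095 and 16828 genes, of which 15918 (47.8% of all nuclear genes) had it in both replicates, and an H3K27me3 peak was on 7483 and 7457 genes, of which 7130 (21.4%) had it in both. Another 1087 genes had H3K4me3 and 680 had H3K27me3 in 1 replicate only, and 1199 of the genes classed as neither were of this kind. The peak names of the H3K4me3 lists read "merge" and "Rep4", whose meaning is not stated, so these lists may not be single independent libraries. Peak lists and FPKM values hold no reads, so the depth behind each call is unknown.

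The marks seldom met. H3K27me3 was on 8.85% of the genes with H3K4me3, against 33.0% of the genes without it and 21.4% of all nuclear genes. Seen from the other side, H3K4me3 was on 19.7% of the H3K27me3 genes, against 47.8% of all nuclear genes. The size of the class with both marks depended on the rule, since it held 497 genes when only peaks with a −log10 q of at least 5 were used, and 226 when each mark had to cover at least 50% of the body. The class with both marks made up 3.96% to 4.52% of the genes on each of the 5 chromosomes. Protein-coding genes, 80.2% of the nuclear genes, made up 96.3% of the class with both marks, 97.4% of H3K4me3 only, 88.6% of H3K27me3 only and 52.8% of neither.

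Transcript levels followed the classes. The median was 2.41 FPKM (fragments per kilobase, scaled to the size of the library) in genes with both marks, with quartiles of 0.366 and 9.77 FPKM. It was 12.3 FPKM in genes with H3K4me3 only (quartiles 4.60 and 32.9 FPKM), 0.0222 FPKM with H3K27me3 only (0 and 0.880 FPKM), 0 FPKM with neither (0 and 0.463 FPKM), and 1.80 FPKM over all nuclear genes. On the log2(FPKM + 1) scale, which understates differences between low genes, the median of genes with both marks was lower by 1.96 than with H3K4me3 only and higher by 1.74 than with H3K27me3 only, and the 2 single-mark classes differed by 3.70. Because there is 1 value per gene and genotype, these levels have no replicate error and no test, and in bulk tissue fewer cells that express a gene and less RNA per cell cannot be told apart.

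**Figure D1:**
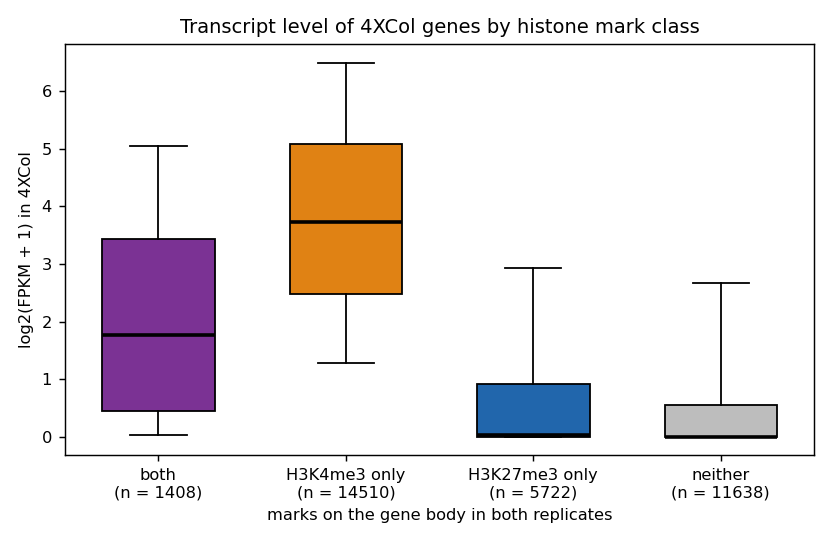
Transcript level in 4XCol, as log2(FPKM + 1), of the genes in each mark class. Boxes span the quartiles, the thick line is the median and whiskers reach the 10th and 90th percentiles. The box of genes with both marks lies between those of the 2 single-mark classes and overlaps both, the lower part of the H3K4me3-only box and the upper part of the H3K27me3-only box.

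At least 1 FPKM was reached by 897 genes with both marks (63.7%), 92.4% of genes with H3K4me3 only, 24.2% with H3K27me3 only and 20.6% with neither, against 54.4% of all nuclear genes. Per library, 89.7% and 88.4% of the genes with an H3K4me3 peak reached 1 FPKM, against 32.2% and 32.3% of the genes with an H3K27me3 peak, again with p = 0.33 in the exact permutation test (two-sided, 2 against 2). At the other end, 9.02% of genes with both marks, 0.937% with H3K4me3 only, 46.3% with H3K27me3 only and 62.5% with neither were listed at 0. Among protein-coding genes, H3K27me3 only and neither changed places. There 26.9% with H3K27me3 only and 37.0% with neither reached 1 FPKM, with medians of 0.0500 and 0.243 FPKM. Listed at 0 were 41.7% of the protein-coding genes with H3K27me3 only and 36.9% with neither. The spread within the class with both marks was wide. Its upper quartile, 9.77 FPKM, lay under the median of the genes with H3K4me3 only, yet 43 of its genes reached 100 FPKM.

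Read the other way, from transcript level to marks, the class with both marks was a low-to-middle class. It held 1.25% of the genes listed at 0, 6.90% of those above 0 and up to 0.1 FPKM, 8.05% at 0.1 to 1 FPKM, 8.06% at 1 to 3 FPKM, 5.71% at 3 to 10 FPKM, 3.76% at 10 to 30 FPKM and 2.90% above 300 FPKM. H3K4me3 only covered 1.34% of the genes listed at 0 and 85.9% of those above 300 FPKM. H3K27me3 only was most frequent not at 0, where 26.0% of genes carried it, but above 0 and up to 0.1 FPKM, where 41.1% did. Among the genes listed at 0, 71.4% carried neither mark. Of these 10181 genes, 4593 were protein-coding, and of the 4593, 2114 carried H3K27me3 only and 2268 neither mark. The part of gene type in the shares of the bins was not tested.

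**Figure D2:**
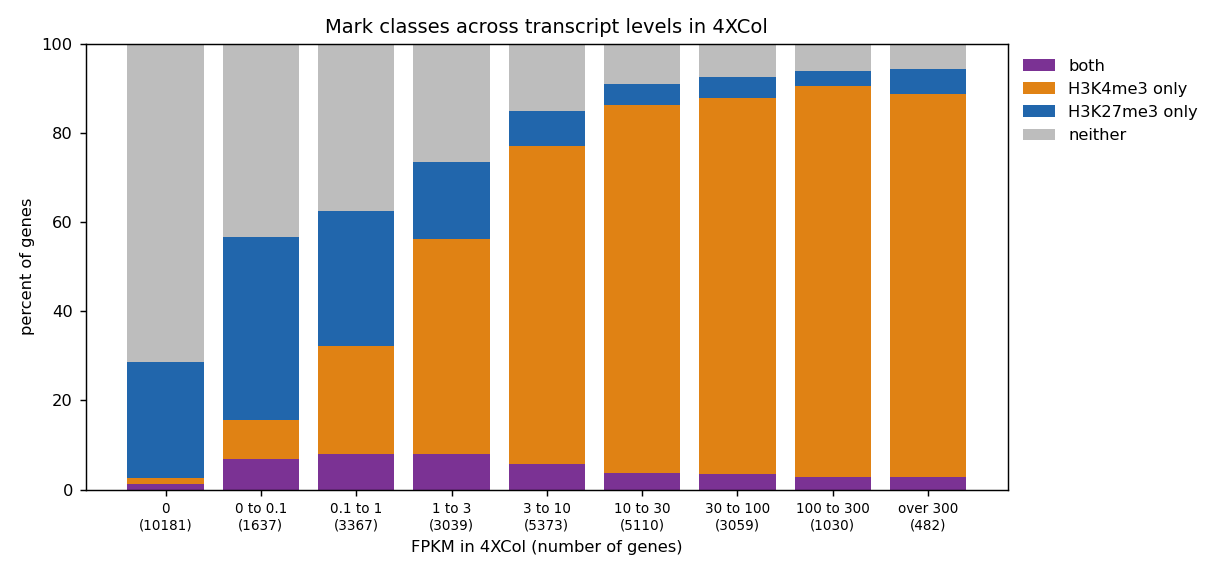
Share of genes in each mark class (percent, stacked) across bins of the transcript level in 4XCol, with the number of genes per bin under each bar. The share with both marks is highest at 0.1 to 3 FPKM (8.05% and 8.06%), and the share with H3K4me3 only is 82.6% or more in every bin above 10 FPKM.

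Within the class with both marks, the transcript level went with how much of the body H3K27me3 covered. In 834 genes H3K27me3 lay on at least 50% of the body in both replicates, their median was 1.49 FPKM and 56.0% reached 1 FPKM. In the other 574 genes the median was 4.14 FPKM and 74.9% reached 1 FPKM. A similar split followed the start site. The 129 genes whose start lay under both marks in both replicates had a median of 0.553 FPKM, the 549 with only H3K27me3 at the start 1.28 FPKM, the 158 with only H3K4me3 there 2.84 FPKM, and the 572 with neither mark at the start 4.61 FPKM. These sets also differed in length, with a median of 1543 bp in the genes covered at 50% or more and 2310 bp in the others, and the part of length in the levels was not tested.

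Both kinds of peak had a lower fold enrichment over the anti-H3 control on genes with both marks. The median fold enrichment over the anti-H3 control of the strongest H3K4me3 peak was 2.60 and 2.91 in the 2 replicates on genes with both marks, against 3.43 and 3.80 on genes with H3K4me3 only. For H3K27me3 it was 2.22 and 2.33 on genes with both marks, against 2.56 and 2.67 on genes with H3K27me3 only. The order held in all 8 FPKM bins with at least 20 genes of both marks, in each replicate and for each mark. H3K27me3 covered 71.6% and 74.2% of the body at the median on genes with both marks, against 100% and 100% on genes with H3K27me3 only, whereas H3K4me3 covered 27.4% and 32.9%, against 25.5% and 27.6% on genes with H3K4me3 only. The same libraries serve every class, so these are descriptions without a test. A peak of the anti-H3 library, which is the control for nucleosome density, lay on 80.9% of genes with both marks, 54.1% with H3K4me3 only, 40.2% with H3K27me3 only and 38.1% with neither, against 47.3% of all nuclear genes. Fold enrichment is a ratio over this same library. The part of the anti-H3 signal in the lower fold enrichment, and in the classes, was not tested.

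Along the gene, H3K4me3 was most frequent 300 bp after the start in both classes that carry it. There 68.6% and 73.2% of genes with both marks had a peak, against 89.9% and 92.1% of genes with H3K4me3 only. H3K27me3 was most frequent 400 bp after the start, on 71.0% and 73.2% of genes with both marks, against 85.7% and 84.5% of genes with H3K27me3 only. It reached further upstream, since 1000 bp before the start 20.9% and 19.5% of genes with both marks, and 36.8% and 35.2% of genes with H3K27me3 only, still lay under it, while H3K4me3 was there on 4.62% and 5.33% of genes with both marks. The start itself was under H3K4me3 in both replicates in 20.4% of genes with both marks and in 33.3% with H3K4me3 only. It was under H3K27me3 in 48.2% of genes with both marks and in 68.2% with H3K27me3 only.

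**Figure D3:**
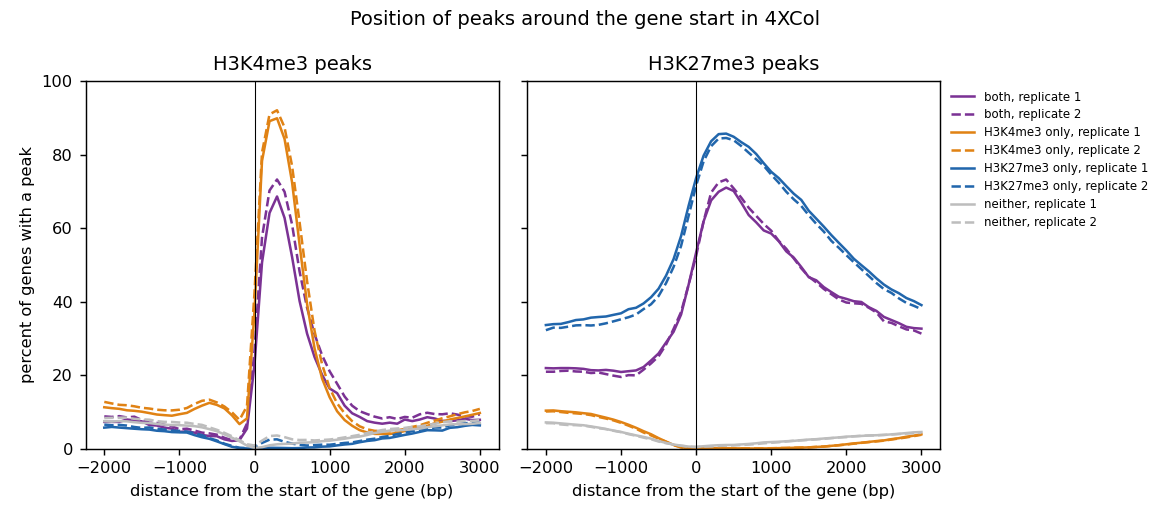
Share of genes (percent) with an H3K4me3 peak (left) or an H3K27me3 peak (right) at each distance from the start of the gene, in steps of 100 bp, by mark class. Solid and dashed lines are replicates 1 and 2. H3K4me3 is a narrow rise with its top 300 bp after the start, and H3K27me3 a broad one with its top at 400 bp, and for either mark the genes with both marks lie under the single-mark class at the top.

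On 1061 of the 1408 genes (75.4%) the 2 marks shared bases of the body in both replicates, and on 1052 (74.7%) there was at least 1 base that lay under all 4 lists. On 265 genes (18.8%) the marks lay on separate stretches of the body in each replicate, without a shared base. The genes with a base under all 4 lists had a median of 2.08 FPKM, against 3.61 FPKM in the others. Genes with H3K27me3 also tended to lie beside each other. Neither of the adjacent genes carried H3K27me3 for 35.4% of the genes with both marks and for 25.7% with H3K27me3 only, against 71.4% with H3K4me3 only and 78.8% with neither. A single broad peak can reach over several adjacent genes, and 1 bp was enough to count a gene, so the rule itself favours such neighbours. The part of shared peaks in these values was not tested.

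Which genes carried both marks was read from lists of known function. It held 7 of 17 embryo and seed genes (41.2%), 2 of 11 meristem and boundary genes (18.2%), 3 of 17 flowering time genes (17.6%), 2 of 13 cold and drought inducible genes (15.4%), 1 of 15 floral homeotic genes, 1 of 28 nuclear photosynthesis genes and none of 14 housekeeping genes, against 4.23% of all nuclear genes and 5.08% of protein-coding genes. By RefSeq product name it held 19.5% of 82 homeobox proteins, 16.8% of 125 basic helix-loop-helix proteins, 15.3% of 72 WRKY proteins, 15.2% of 79 ethylene response or AP2 proteins and 11.7% of 248 cytochrome P450 proteins. It held 2.92% of 343 ribosomal proteins, 2.38% of 629 F-box proteins, 1.92% of 261 pentatricopeptide proteins and none of 45 proteasome or 19 TCP proteins. Other families of transcription factors lay nearer to the share of protein-coding genes, with 9.30% of 43 MADS, 7.95% of 176 MYB and 6.25% of 80 NAC proteins. These are counts without a test.

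**Figure D4:**
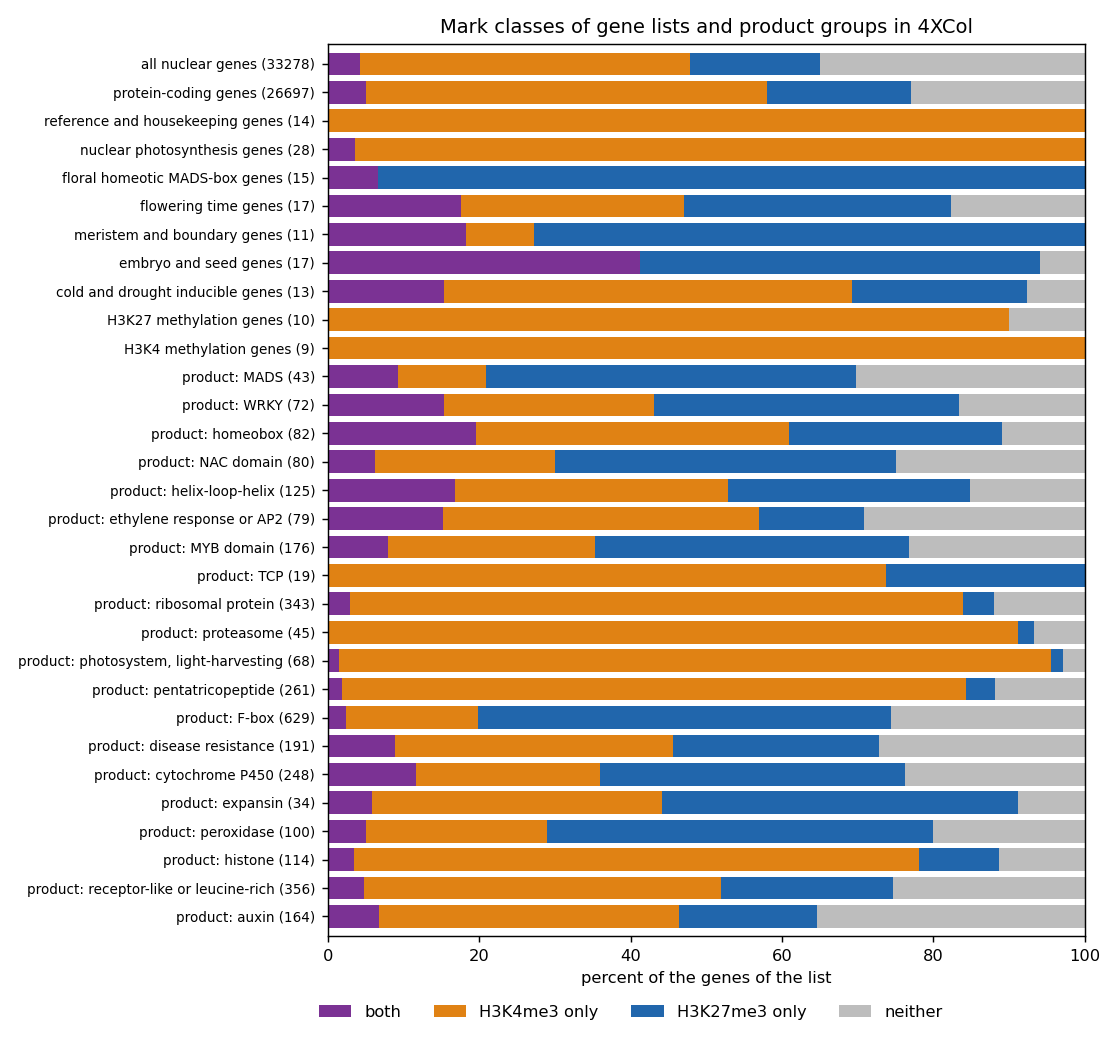
Share of each gene list or product group (percent, stacked) in the 4 mark classes, with the number of genes in brackets. Housekeeping, photosynthesis, proteasome and ribosomal genes are mostly H3K4me3 only, floral homeotic and F-box genes mostly H3K27me3 only, and the embryo and seed list has 41.2% with both marks.

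The flowering time list was divided among all 4 classes. FLC (AT5G10140, chr5:3173497-3179448, minus strand), the MADS-box repressor of flowering that Polycomb silences after cold, carried both marks. Its H3K4me3 peak covered 8.27% and 9.22% of the body (fold enrichment 3.54 and 4.08) and its H3K27me3 peak 99.2% and 85.8% (2.50 and 2.66). The H3K4me3 peaks lay within the first 548 bp, and all of their bases in the gene, 492 and 549 bp, were also under H3K27me3. FLC was at 5.48 FPKM in 4XCol and 1.70 FPKM in Col, a pair of single values with no test. Its relative MAF5 had both marks with 0.799 FPKM in 4XCol.

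LFY (AT5G61850, chr5:24844295-24846933, plus strand), the master regulator of flower meristem identity, carried both marks at 0.0159 FPKM. H3K4me3 covered 35.7% and 41.0% of its body and H3K27me3 58.8% and 69.8%, and the marks shared 719 and 975 bp. Its level lay under the lower quartile of the class with both marks, and that of FLC between the quartiles. The other flowering genes carried 1 mark or none. FLM, MAF2, MAF3, SOC1 and SVP, at 9.57 to 88.0 FPKM, had H3K4me3 only. FT, the mobile flowering signal, at 0.484 FPKM, and TSF, AGL24, TFL1, AGL19 and MFT had H3K27me3 only, with levels from a listed 0 to 4.70 FPKM. CO, BFT and MAF4 had neither in both replicates, although MAF4 had H3K27me3 on 20.3% of its body in replicate 2.

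Among the floral homeotic MADS-box genes, which specify flower organs, 14 of 15 carried H3K27me3 only, against 19% of protein-coding genes. Of the 14, 13 were under 1 FPKM. SEP3 at 10.6 FPKM and PI at 0.973 FPKM were the highest of the 14. AG, the C-class gene, had H3K27me3 on 100% and 84.7% of its body and 0.0250 FPKM. SEP4 was the exception, with H3K4me3 on 17.3% and 18.6%, H3K27me3 on 81.6% and 29.5%, and 3.06 FPKM.

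In the meristem and boundary list, 8 of 11 genes, with STM, WUS and CLV3 among them, carried H3K27me3 only, at 3.09 FPKM or less. Over protein-coding genes the share of H3K27me3 only was 19%. KNAT6 (AT1G23380, chr1:8297291-8302651, minus strand), whose promoter is printed above, and CUC2 (AT5G53950), a NAC factor that separates organs, carried both. On KNAT6 the H3K4me3 peak lay from 108 to 499 and from 98 to 512 bp after the start, wholly within an H3K27me3 stretch that covered 70.5% and 70.8% of the body, and the gene was at 5.24 FPKM. On CUC2 H3K4me3 covered 21.8% and 26.5% and H3K27me3 100% and 100% of the body, at 0.338 FPKM. CUC1 had H3K4me3 only at 0.760 FPKM, and CUC3 H3K27me3 only at 0.472 FPKM. WUS had H3K4me3 on 22.7% of the body in replicate 2 only, and was listed at 0. In Col, WUS carried both marks.

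The embryo and seed list had the highest share with both marks of the 9 lists. Its members were LEC1, LEC2, ABI3 and AGL15, transcription factors of embryo development, DOG1, a regulator of seed dormancy, and the storage protein genes CRA1 and SESA2. FUS3, BBM, CRB, CRC, SESA1, SESA3, OLEO1, MEA and PHE1 carried H3K27me3 only, and L1L neither. On LEC2 H3K4me3 covered 3.82% and 9.27% of the body and H3K27me3 100% and 100%, and on ABI3 8.34% and 13.4% against 100% and 100%. LEC1 was listed at 0, LEC2 was at 0.105 FPKM and ABI3 at 0.0928 FPKM. DOG1 (AT5G45830) was the highest of the 7, at 7.08 FPKM. Its H3K4me3 peaks did not meet, since they lay from 46 to 276 bp after the start in replicate 1 and from 693 to 942 bp in replicate 2. Only 3 of the 1408 genes had H3K4me3 peaks that shared no base between replicates, and 5 had such H3K27me3 peaks. The H3K4me3 enrichment of these 7 genes was low, at 1.51 to 2.41 in replicate 1 and 2.14 to 3.12 in replicate 2, and 3 of them, AGL15, DOG1 and SESA2, had H3K27me3 only in Col.

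**Figure D5:**
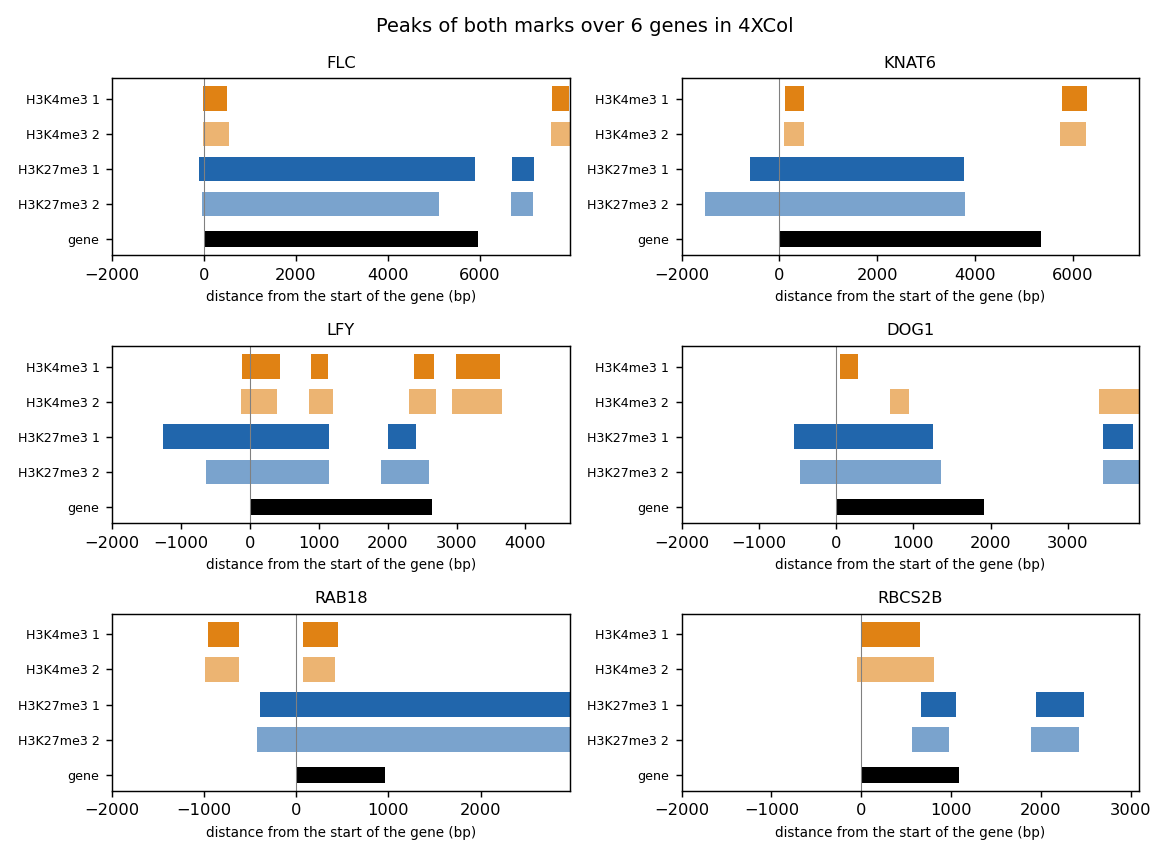
H3K4me3 peaks (orange) and H3K27me3 peaks (blue) of replicates 1 and 2 over 6 genes with both marks, in bp from the start of the gene, which is the black bar. On the bodies of FLC, KNAT6 and RAB18 the H3K4me3 peaks lie inside H3K27me3 (other H3K4me3 peaks in these windows lie beyond the gene), those of DOG1 differ between replicates, and on RBCS2B the marks lie side by side with no shared base in replicate 1.

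Cold and drought inducible genes were divided too. RAB18 (AT5G66400, chr5:26518277-26519242, minus strand), a dehydrin induced by abscisic acid, had H3K27me3 on 100% and 100% of its body and H3K4me3 on 38.8% and 36.6%, at 96.6 FPKM. COR15A, a chloroplast protein of cold acclimation, had H3K27me3 on 25.6% and 54.4% and H3K4me3 on 29.4% and 46.3%, at 58.5 FPKM. CBF1, CBF2, CBF3, RD29A, COR47, DREB2A and NCED3 had H3K4me3 only, at 1.23 to 442.7 FPKM, RD29B, LTP3 and LTP4 had H3K27me3 only, and KIN1 had neither at 31.7 FPKM. In transcript level RAB18 and COR15A stood above 6 of the 7 inducible genes with H3K4me3 only, and below COR47.

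The housekeeping list, from UBQ10 at 1918 FPKM to SAND at 17.0 FPKM, carried H3K4me3 only in all 14 genes. So did 27 of 28 photosynthesis genes, with LHCB1.2 (CAB3) the highest at 15057 FPKM. Over protein-coding genes the share of H3K4me3 only was 52.9%. LHCB1.3 and LHCB1.5 are listed at 0 although H3K4me3 covered 85.0% and 76.0% of their bodies in replicate 1. They are near-identical copies of other LHCB1 genes, so the listed values of LHCB1 genes, LHCB1.2 included, are uncertain. LHCB1.5 also overlaps RWA3, another gene listed at 0. RBCS2B (AT5G38420, chr5:15380945-15382035, minus strand), a small subunit of Rubisco and 1 of 4 such genes in the list, carried both marks at 1848 FPKM. Its H3K4me3 lay over the first part of the gene (59.4% and 73.7% of the body) and its H3K27me3 over the last part (35.9% and 37.6%), with 0 and 235 shared bases, and its neighbours RBCS1B and RBCS3B, close copies between which reads may be split, had H3K4me3 only.

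Almost all listed genes for proteins that write or read the marks, or remove H3K27me3, carried H3K4me3 only, against 52.9% of protein-coding genes. This held for 9 of 10 H3K27 genes, namely the Polycomb subunits CLF, SWN, FIE, EMF2 and MSI1, the reader LHP1, and the demethylases ELF6, REF6 and JMJ13, at 2.19 to 22.4 FPKM. VRN2 had neither mark at 8.85 FPKM. It also held for all 9 genes of H3K4 methylation, ATX1 to ATX5, SDG2, WDR5A, RBL and ASH2R, at 1.54 to 7.10 FPKM. None of these 10 and 9 genes had both marks, against 5.08% of protein-coding genes, and lists this short cannot show a share lower than that.

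Several genes with both marks were fully covered by both. On AT1G29160, a Dof-type zinc finger gene, PYL2, an abscisic acid receptor, GIK, an AT-hook DNA-binding protein, and LSH5, of the family of LIGHT-DEPENDENT SHORT HYPOCOTYLS proteins, both marks covered 100% of the body in both replicates, at 5.94, 3.88, 9.12 and 4.21 FPKM. AT1G77200 and ERF10, which encode AP2-type and ERF-type DNA-binding proteins, and the arabinogalactan protein gene AGP10 followed, with both marks together on at least 91.4% of the body and 11.5, 2.08 and 30.7 FPKM. AT3G15604 and AT3G12440, in the same top 10, were listed at 0, and AT3G12460 was at 0.513 FPKM. These genes are short, at 165 to 1062 bp, and all of them but AT3G15604 lay under anti-H3 peaks as well. In all, 203 genes (14.4%) had both marks together on at least 50% of the body in both replicates.

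The highest transcript level in the class with both marks was that of LP1, a lipid transfer protein, at 2326 FPKM, followed by RBCS2B, GRP-3 (1429 FPKM), PRP4 (900.3 FPKM), NEET (538 FPKM), AT4G29020, a glycine-rich protein (506 FPKM), NSP1, a nitrile specifier of glucosinolate breakdown (496 FPKM), TCH3, a calmodulin-like protein (432 FPKM), GRP23 (400.2 FPKM) and IAA7, an auxin response repressor (378 FPKM). On LP1 H3K27me3 covered 56.5% and 100% of the body and H3K4me3 62.9% and 57.8%. On PRP4 it covered 91.7% and 87.5% against 64.1% and 69.2%. The H3K27me3 enrichment was 1.56 to 2.49 over these 10 genes and both replicates.

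A high level without H3K4me3 was also seen. In genes with H3K27me3 only, 1383 reached 1 FPKM and 61 reached 100 FPKM. The highest were AT4G23670, a polyketide cyclase family protein (2246 FPKM), PYK10, a beta-glucosidase of endoplasmic reticulum bodies (1792 FPKM), MLP34 (1618 FPKM), TGG1, a myrosinase known from guard cells and phloem (1553 FPKM), and AT1G23130 (1331 FPKM). On MLP34, TGG1 and AT1G23130 the mark covered 100% and 100% of the body. H3K27me3 only held 17.2% of all nuclear genes and 19% of protein-coding genes. Of the 100 peroxidase genes 51 had H3K27me3 only, with a median of 11.7 FPKM, against 0.0222 FPKM for the whole class. All 7 root markers had H3K27me3 only, although 5 of them reached 1 FPKM, among them CASP1, of the Casparian strip, at 61.8 FPKM, and EXPA7 and PRP3, of root hairs, at 15.3 and 12.3 FPKM. Their summed level was 95.1 FPKM in 4XCol and 126 FPKM in Col, PLT1 and WOX5 were at 0.608 and 0.785 FPKM, and the harvest of aerial parts should have left roots out. The part of root RNA in these values was not tested. The leaf mesophyll markers RBCS1A, LHCB1.1 and RCA, at 3351 to 11111 FPKM, had H3K4me3 only, and the 3 flower markers stayed under 1 FPKM.

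H3K4me3 was also found on genes listed at 0, namely on 127 genes with both marks (9.02%) and on 136 with H3K4me3 only (0.937%). Of the 136, AT3G45820, AT3G08520 (a ribosomal protein L41 gene), RWA3 (an O-acetyltransferase), AT3G20900 and AT4G05071 had the highest enrichment, up to 6.38-fold. RWA3 and AT3G20900 overlap another gene, so their peaks cannot be assigned to 1 gene. Genes with neither mark included MT3, a metallothionein, at 5565 FPKM, and AGT, a photorespiratory aminotransferase, at 1611 FPKM. Both had an H3K4me3 peak in replicate 2 only, on 22.2% and 43.5% of the body. GASA6 at 1379 FPKM and MT1C at 1260 FPKM had no peak of either mark in any list.

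Most genes with both marks also had both in Col, but this class was kept less often than the others. The class in Col was the same for 92.3% of genes with H3K4me3 only, 94.7% with H3K27me3 only and 96.7% with neither. The class with both marks needs a peak in all 4 lists of a genotype, and its peaks had the lower fold enrichment. The part of this rule in how often the class was kept was not tested. Of the 1408 genes, 1155 (82.0%) had both marks in Col as well, 65 had H3K4me3 only there, 180 had H3K27me3 only and 8 had neither. These 1155 were 83.8% of the 1378 genes with both marks in Col. By same-numbered libraries, 4.66% and 5.47% of nuclear genes had both marks in 4XCol, against 5.43% and 4.77% in Col, which overlap. The peak names cross these numbers, since the list named "merge" is in the first pair of 4XCol and the second pair of Col. Set side by side by name, which was done after the values were seen, the pairs with "merge" gave 4.66% in 4XCol and 4.77% in Col, and those with "Rep4" gave 5.47% in 4XCol and 5.43% in Col. The means were 5.07 ± 0.57% in 4XCol and 5.10 ± 0.46% in Col (SD, n = 2 each), and the exact permutation test (two-sided) of the difference of -0.03 gave p = 1. The median log2 ratio of 4XCol to Col, over genes that reached 1 FPKM in either, was -0.03 with both marks, 0.09 with H3K4me3 only, -0.06 with H3K27me3 only, 0.09 with neither and 0.08 over all such genes. Of the genes with both marks 8 (0.568%, against 0.604% of all nuclear genes) were higher in 4XCol by 2-fold or more on the log2(FPKM + 1) scale, and 12 (0.852%, against 0.4%) were lower by as much. Among the other classes, 0.839% with H3K27me3 only, 0.179% with H3K4me3 only and 0.404% with neither were lower by as much. These single values carry no test.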

How the data were processed

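ChIP-seq of H3K4me3 and H3K27me3 and RNA-seq of 4XCol and Col seedlings were used. BWA alignment was followed by Macs2 peak calling, with the anti-H3 library as control, per the authors. The deposited lists hold, per peak, the ratio of signal over that control (fold enrichment) and a q-value as −log10. RNA reads went through STAR and featureCounts, and the deposited FPKM values are 1 per gene and genotype, with the way of combining the 3 samples not given in the sources used here. Whether the FPKM include the transcriptome size scaling that the study describes is not given either. The submitters' processing notes name TAIR10, BWA, HiC-Pro and R 3.4.1. Gene positions are those of the expression table, and peaks lay within the TAIR10.1 chromosome lengths. RefSeq TAIR10.1 gave gene types and products for 98.6% of 33278 nuclear genes by locus, and promoter sequence from the table's start sites. Where the names of Col H3K4me3 lists disagreed with sample titles in replicate number, titles were used. Contact matrices, input libraries and the authors' gene lists were not used here.

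Bases of each body under peaks were counted with Python 3.11.15 and numpy 2.4.6. A mark needed at least 1 bp in both replicates, expression was used as FPKM and log2(FPKM + 1), and library measures were compared with exact permutation tests over 2 against 2 libraries. On simulated peaks, 100% of the classes of 5491 genes were recovered. Depth is unknown, since neither kind of file holds reads. Every member of a fixed gene list could be named. Besides these, the named genes were, among protein-coding genes, the 10 with both marks with the largest share of the body under both, the 10 with the highest FPKM, the 5 highest with H3K27me3 on at least 50% of the body, the 5 highest of each other class, and, of H3K4me3-only genes listed at 0, the 5 with the highest enrichment. The 6 mapped genes, the 2 printed promoters, and MAF4, WUS, DOG1 and SEP4 as exceptions were singled out after their values were seen, and so were the profiles, the bins of FPKM and the bases under all lists. The members and lists were chosen with earlier results of these data known. The alternatives were a larger overlap, 1 replicate, stricter peaks, protein-coding or non-overlapping genes, another pseudocount, a filter of 1 FPKM, a replicate block, and leaving out each library in turn.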

Additional observations from a re-analysis of the deposited data

How the results depend on the processing

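All 3 differences in median log2 level between classes kept their direction under every alternative run. Their sizes moved with the rule. Needing 50% of the body for either mark left 226 genes with both marks, 2604 with H3K4me3 only and 25107 with neither, and gave differences of -2.74 (both minus H3K4me3 only) and 4.45 (H3K4me3 only minus H3K27me3 only). Needing 50% for H3K27me3 only left 834 genes with both marks, and differences of -2.38, 1.29 (both minus H3K27me3 only) and 3.67. Peaks with −log10 q of at least 5 left 497 genes with both marks and 3531 with H3K27me3 only, and gave -2.28, 1.44 and 3.72. A pseudocount of 0.1 gave -2.30, 4.36 and 6.66, genes of at least 1 FPKM gave -0.98, 0.48 and 1.46, and protein-coding genes held 6145 with neither mark. The difference between the single-mark classes was 3.67 with a mark in 1 replicate and 3.72 in genes that overlap no other gene.

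Leaving out each library in turn gave 1447 to 1705 genes with both marks, and differences of -2.09 to -1.91, 1.57 to 1.80, and 3.66 to 3.71. The mark of the library left out then needed a peak in 1 list only, so the count could not fall under 1408. The excess of H3K4me3 over H3K27me3 in covered gene-body bases, 1.56 percentage points, ranged from 0.83 to 2.29, the lower value without H3K4me3 replicate 2. The difference in genes with both marks between 4XCol and Col was -0.76 percentage points without replicate 2 and 0.70 without replicate 1, so its sign depended on the pair left out. Each of these values sets a "merge" H3K4me3 list against a "Rep4" list. Numbers shared by the libraries pair nothing that the labels name. With the replicate block the differences stayed at -1041.5 bp in median peak width, 1.56 and 56.8 percentage points in covered bases and in genes reaching 1 FPKM (p = 0.5 in exact permutation, the smallest the block allows), and -0.03 for 4XCol against Col (p = 1). The depth of the libraries is unknown, and the cause of these shifts was not tested.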

Other observations

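Gene types differed in their marks. Over all nuclear genes the shares were 4.23% both, 43.6% H3K4me3 only, 17.2% H3K27me3 only and 35% neither, and 30.6% were listed at 0. Of 178 microRNA genes none carried both marks, 12.9% carried H3K4me3 only, 26.4% H3K27me3 only and 60.7% neither, and 160 were listed at 0. Of 224 long non-coding RNA genes 2.23% carried both marks and 58.5% H3K4me3 only. Transcribed pseudogenes carried H3K27me3 only in 29.8% of 926 cases and both marks in 2.05%, while of the other 3911 pseudogenes 92.1% carried neither mark. Of 623 tRNA genes, all listed at 0, 98.1% carried neither. The part of gene length in these shares was not tested.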
